A study of Sus scrofa with 16 samples.

Results

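TLR2 and TLR4, the Toll-like receptors for bacterial lipoproteins and for lipopolysaccharide, were followed across antibiotic-treated and control preterm piglets in both ends of the small intestine. They are 2 of the 6765 genes that the array annotation pairs with a probe set of their own. Their members were found by gene symbol alone, which gave 1 probe set for TLR2 and 5 for TLR4, 6 of 23999 probe sets without the array's controls. No measured value entered this search by symbol, but the 2 genes themselves were chosen with earlier results of these data known.

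The study held 24 piglets of a Landrace x Large white x Duroc cross from 2 sows, born preterm by caesarean section at 105 days of gestation. The 11 piglets of the antibiotics group received Ampicillin, Gentamycin and Metronidazol by mouth and into the muscle, 2 times a day from birth, and the 13 controls received saline on the same schedule. The control arrays are titled "Untreated", but their treatment label names saline. Both groups began on parenteral nutrition with small enteral feeds, were fed only enterally from day 3 and were killed on day 5. Total RNA of whole proximal or distal intestinal tissue was hybridised to Affymetrix porcine arrays, 4 arrays in each of the 4 groups: control proximal, antibiotics proximal, control distal and antibiotics distal. Piglets are named below by the number in the sample titles, which no label defines. Read as animals, the 16 arrays came from 9 piglets, of which controls 83, 88, 89 and 92 and treated piglets 86, 87 and 95 gave both segments, while treated piglet 98 gave only proximal and 85 only distal tissue. Litter, lesion score and scan batch of each array were not used here.

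Toll-like receptors are membrane proteins that bind conserved parts of microbes and signal through adaptors such as MyD88 and TRIF to NF-kappa B, MAP kinases and interferon regulatory factors, which switch on cytokine and chemokine genes. TLR2 pairs with TLR1 or TLR6 and recognises lipoproteins and lipoteichoic acid, with much of its ligand coming from Gram-positive bacteria. TLR4 works with the secreted protein MD-2 (gene LY96) and, helped by CD14 and the lipopolysaccharide-binding protein LBP, recognises the lipopolysaccharide of Gram-negative bacteria. In the gut both are made by macrophages, monocytes and neutrophils and, at lower levels, by epithelial and endothelial cells. Mice that lack TLR4 signalling are protected from experimental necrotizing enterocolitis.

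Values are the authors' GCRMA values on a log2 scale, on which 1 unit is a doubling and the lowest value on any array is 2.14. A probe set was tested if it exceeded 5 on 4 or more of the 16 arrays, which 11538 did, and on each array 45.1% to 46.5% of probe sets lay above 5. With 4 arrays a group, the array number sets the precision. RNA integrity was read from the array's actin and GAPDH controls as the mean of 4 differences between 5′ and 3′ probe sets. It ran from -4.83 to -3.51 on treated and from -4.23 to -3.65 on control distal arrays (p = 0.457, exact two-sided permutation). On proximal arrays it ran from -4.05 to -3.26 and from -4.58 to -3.03 (p = 0.543, exact two-sided permutation). The labels call the tissue intestine, and the mean of 10 enterocyte markers lay between 12.70 and 13.74 on all arrays.

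Of the Toll-like receptors, TLR2, TLR4 and TLR6 were measurable in this tissue. TLR2 was read by probe set Ssc.17337.1.S1_at, which lay above 5 on 8 arrays and above 7 on 4, all of them control distal. TLR4 was read by Ssc.12781.1.A2_at, the only TLR4 probe set that passed the filter, which lay above 5 on 7 arrays. The second TLR4 probe set, Ssc.12781.1.A1_at, stayed between 2.23 and 4.82 and never reached 5. The other 3 TLR4 probe sets (Ssc.12781.1.A1_s_at, Ssc.19703.1.S1_s_at and Ssc.28998.1.A1_at) lay within 0.1 of the floor on every array. TLR6, the partner of TLR2 for diacylated lipoproteins, lay between 4.18 and 6.39. TLR1, TLR8 and TLR9, with 4 probe sets between them, were within 0.1 of the floor on all 16 arrays, and TLR3, TLR5, TLR7 and TLR10 had no probe set annotated with them alone. A probe set at the floor gives no order between groups.

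**Figure D1:**
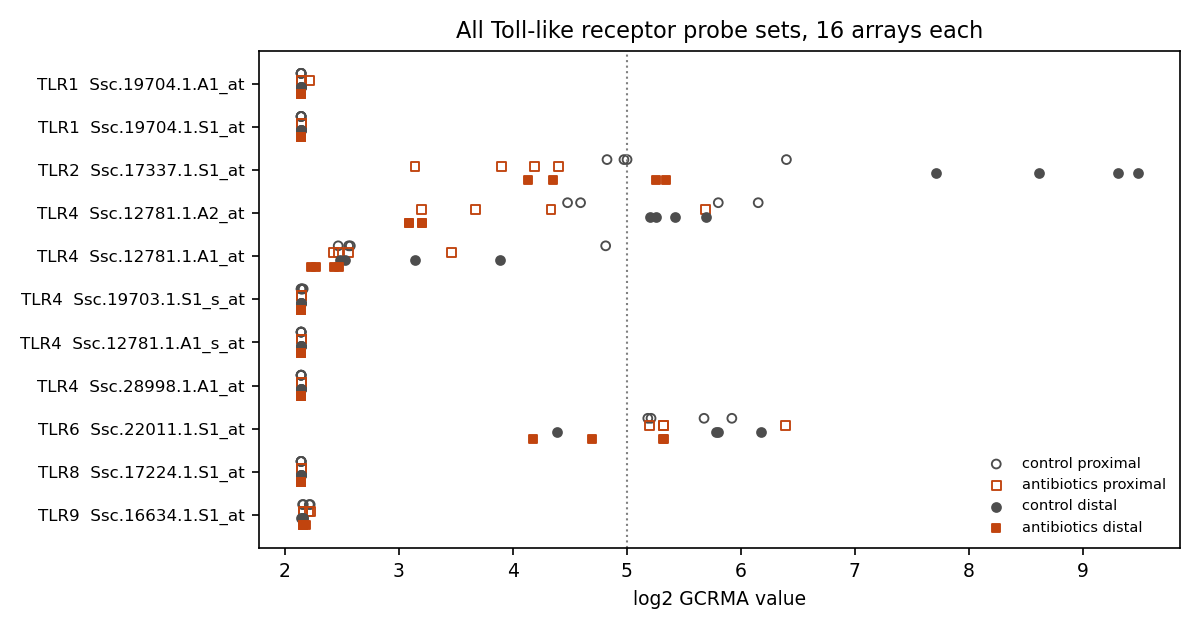
Each row is 1 probe set annotated with a Toll-like receptor, with its log2 GCRMA value on each of 16 arrays on the horizontal axis; circles are controls, squares antibiotics, open symbols proximal and filled symbols distal tissue, and the dotted line marks the filter level of 5. Only probe sets of TLR2, TLR4 and TLR6 reached 5, and only TLR2 passed 7, on the 4 control distal arrays.

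The first comparison asked whether antibiotics from birth changed the expression of these receptors. In distal intestine TLR2 fell with antibiotics by 4.01 on the log2 scale, 16.1-fold (SE 0.45, n = 4 arrays each, limma adjusted p = 0.000166). Control distal arrays 83, 88, 89 and 92 stood at 8.61, 7.72, 9.31 and 9.49, a mean of 8.78 ± 0.80 (SD). Antibiotics distal arrays 85, 86, 87 and 95 stood at 5.25, 4.35, 5.35 and 4.14, a mean of 4.77 ± 0.62. The lowest control lay 2.37 above the highest treated array and the groups did not overlap. Since 2 of the 4 treated arrays lay below the filter level of 5, the size of the fold is less certain than its direction; the control mean exceeded that level 13.8-fold. TLR2 ranked 10th of the 11538 tested probe sets by p. Both TLR2 and TLR4 fell in distal tissue, where 1.10% of tested probe sets fell (127 of 11538) and 2.12% changed in either direction. For TLR2 the limma adjusted p was at most 0.00634 in the 13 alternative settings run and at most 0.00116 in 16 fits with 1 array left out.

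In proximal intestine the TLR2 values also separated by treatment, but the difference did not pass the test over all probe sets. Control proximal arrays 83, 88, 89 and 92 stood at 4.98, 4.83, 5.00 and 6.40 (5.30 ± 0.74), and antibiotics proximal arrays 86, 87, 95 and 98 at 3.14, 3.90, 4.19 and 4.40 (3.91 ± 0.55). Every treated array lay below every control array, with a gap of 0.43, as did 1.74% of all tested probe sets in this segment. The difference was -1.39 (SE 0.45, limma adjusted p = 0.211), and 0.0867% of probe sets passed the threshold lower in this comparison. Without control array 92, the highest of its group, it was -1.03 (limma adjusted p = 0.601). All 4 treated arrays lay below the filter level of 5.

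TLR4 fell in distal intestine as well, by 2.25 on the log2 scale (SE 0.45, n = 4 arrays each, limma adjusted p = 0.0174). Control distal arrays 83, 88, 89 and 92 stood at 5.42, 5.20, 5.70 and 5.25, a mean of 5.39 ± 0.22. Antibiotics distal arrays 85, 86, 87 and 95 stood at 3.09, 3.20, 3.20 and 3.09, a mean of 3.15 ± 0.07. The groups did not overlap, with a gap of 2.00, which was also true of 6.31% of tested probe sets on the lower side in this segment. The 4 treated arrays held only 2 distinct values, each the same to 6 decimals on at least 2 arrays. Of the tested probe sets 20.2% had a value shared by at least 2 arrays, but only 32 (0.277%) had all 4 antibiotics distal values shared in this way. The fold as deposited was 4.75, but with every treated array below the filter level the control mean exceeded that level by only 1.31-fold, and how far below it TLR4 fell is not resolved. The call for TLR4 was narrower than for TLR2, since it ranked 103rd by p and lost the threshold without control array 83 (adjusted p = 0.0506), antibiotics array 85 (0.0512) or antibiotics array 95 (0.0501), all limma fits. It also hinges on the filter. Of the 7 arrays above 5, 4 were control distal, so the probe set was tested only through the group where it is high. Without a filter the limma adjusted p was 0.0665. The dimmer probe set Ssc.12781.1.A1_at, fitted without a filter, differed by -0.66 in distal tissue (SE 0.49, limma adjusted p = 0.807), so the fall of TLR4 rests on 1 probe set.

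Proximal TLR4 values were spread widely in both groups. Control proximal arrays 83, 88, 89 and 92 stood at 4.60, 4.48, 5.80 and 6.15 (5.26 ± 0.85), and antibiotics proximal arrays 86, 87, 95 and 98 at 3.67, 3.20, 4.34 and 5.69 (4.23 ± 1.08). The groups overlapped through treated array 98, which lay above 2 of the 4 controls. The difference of -1.03 (SE 0.45) did not pass (limma adjusted p = 0.355), and it depended on single arrays: it was -1.52 without treated array 98 (limma adjusted p = 0.0699), -0.69 without treated array 87 (0.539) and -0.73 without control array 92 (0.728). Array 98 was also the highest treated proximal array for TLR2, for the dimmer TLR4 probe set at 3.46 and for TLR6 at 6.39. Control array 92 was the highest control proximal array for TLR2, TLR4, the dimmer TLR4 probe set at 4.82 and the mean of the macrophage markers at 6.27.

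**Figure D2:**
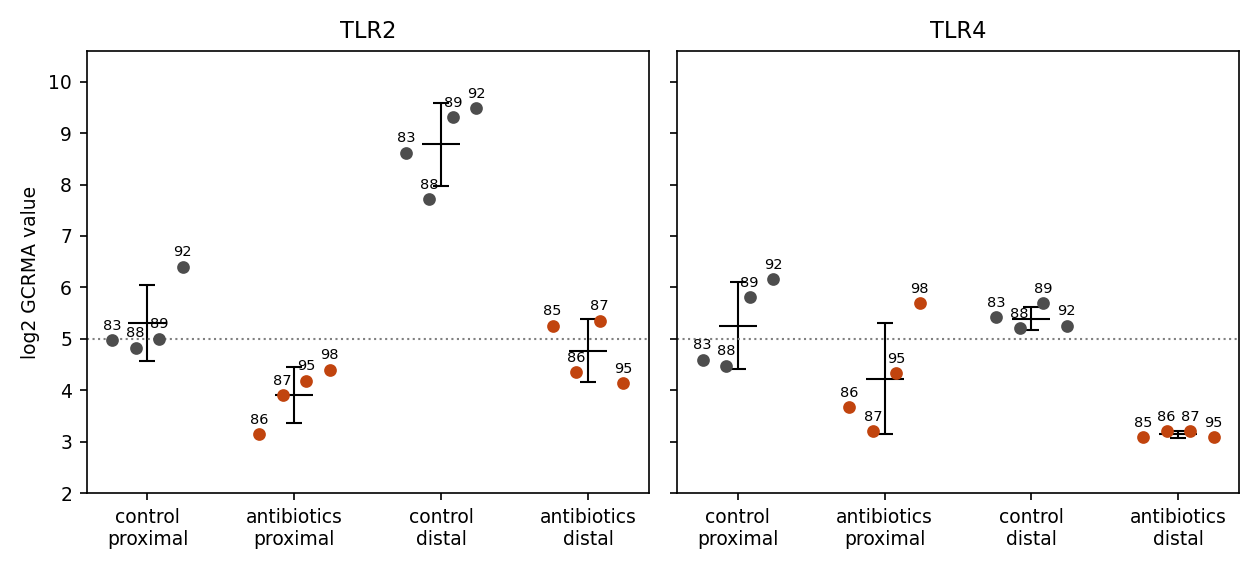
Log2 GCRMA values of TLR2 (left) and TLR4 (right) on each array, labelled with the piglet number, with the group mean and SD (n = 4 arrays per group); grey is control, orange antibiotics, and the dotted line the filter level of 5. TLR2 in control distal tissue (7.72 to 9.49) stands above every other array, and TLR4 in treated distal tissue (3.09 to 3.20) is compact while the proximal groups overlap.

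Segments were compared within each treatment. In controls TLR2 was higher in distal than in proximal tissue by 3.48, 11.2-fold (SE 0.45, limma adjusted p = 0.000601), without overlap between the segments, where 0.321% of tested probe sets were called higher and 1.94% did not overlap on that side. Joined by piglet number, the rise was present in each control, at 3.64 in 83, 2.89 in 88, 4.31 in 89 and 3.08 in 92. In treated piglets the same difference was 1.21 in 86, 1.45 in 87 and -0.05 in 95, below that of every control, and the group difference of 0.86 did not pass (SE 0.45, limma adjusted p = 0.353), in a comparison where 5.25% of probe sets did. The direct test of whether the antibiotic effect on TLR2 differed between segments gave -2.62 (SE 0.63, limma adjusted p = 0.176), which did not pass over all probe sets, as 0.191% did. With array quality weights its limma adjusted p was 0.0364 (-2.69). All 4 treated proximal arrays lay below the filter level and the control proximal mean exceeded it by only 1.23-fold, so the proximal change, and with it the size of this difference between segments, is not well resolved. The antibiotic effect and the control gradient are read from the same 4 control distal arrays.

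For TLR4 the control piglets had no common direction between segments. Distal minus proximal was 0.83 in control 83, 0.72 in 88, -0.11 in 89 and -0.90 in 92, a mean of 0.13 (SE 0.45, limma adjusted p = 0.991) that turned negative, to -0.12 at most, when control proximal array 83 or 88 was left out. In treated piglets it was -0.47 in 86, 0.00 in 87 and -1.25 in 95, a mean of -0.57. The difference of the group means was -1.08 (SE 0.45, limma adjusted p = 0.227), and -0.59 without proximal array 98, which has no distal partner. The test of the difference between segments in the antibiotic effect gave -1.21 (SE 0.64, limma adjusted p = 0.79), and -0.71 over piglets with both segments or with piglet number as a fixed block. With 1 array left out it ran from -1.56 without antibiotics proximal array 87 to -0.73 without antibiotics proximal array 98. Its size is limited further by the 4 treated distal arrays below the filter level.

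**Figure D3:**
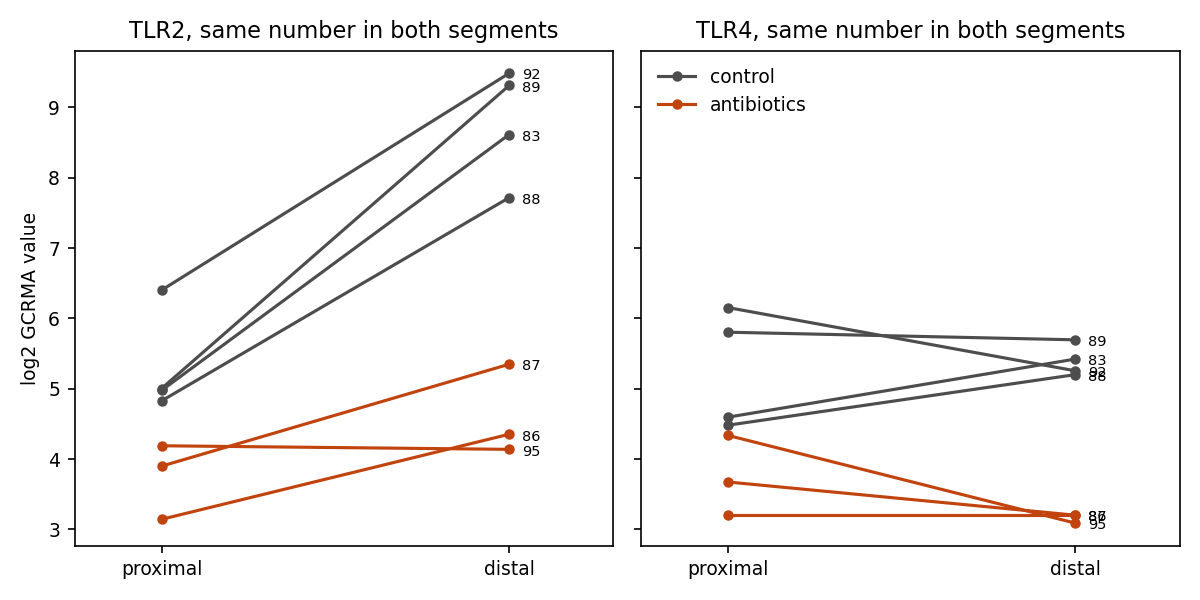
Log2 GCRMA values of TLR2 (left) and TLR4 (right) in proximal and distal tissue, joined for the 7 piglet numbers with both segments; grey is control and orange antibiotics. TLR2 climbs by 2.89 to 4.31 in the 4 controls and by -0.05 to 1.45 in the 3 treated piglets, while the TLR4 lines have no common slope in controls.

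Ordered by group mean, TLR2 ran from control distal (8.78) over control proximal (5.30) and antibiotics distal (4.77) to antibiotics proximal (3.91). Only the first step was free of overlap: antibiotics distal reached 5.35, above the lowest 3 control proximal arrays, and its lowest array, 4.14, lay below 2 of the antibiotics proximal arrays. TLR4 ran from control distal (5.39) over control proximal (5.26) and antibiotics proximal (4.23) to antibiotics distal (3.15), and each neighbouring pair overlapped or met, the last pair at 3.20. With 1 mean of both segments per piglet, TLR2 was 3.75 to 4.62 in 3 treated and 6.27 to 7.94 in 4 control piglets (difference -2.86, SE 0.39, limma adjusted p = 0.0301). TLR4 was 3.20 to 3.71 and 4.84 to 5.75 (-1.88, SE 0.28, limma adjusted p = 0.0468). In this comparison 0.225% of probe sets were called lower, and the call held in only 2 of 7 fits with 1 piglet left out for TLR2 and in 1 of 7 for TLR4.

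The distal change of TLR2 minus that of TLR4 was -1.76 on the log2 scale. Since the fall of TLR4 below the filter level is not resolved, the size of this difference cannot be read. It did not pass after adjustment, but with 4 against 4 arrays it could pass only if the proximal test also reached the smallest possible p. TLR2 minus TLR4 ran from 1.05 to 2.16 on treated and from 2.52 to 4.23 on control distal arrays, without overlap, and its two-sided exact permutation p of 0.0286 is the smallest that 4 against 4 arrays allow (0.0571 adjusted over the 2 segments). In proximal tissue the difference was -0.36 and the groups overlapped (two-sided exact permutation p = 0.457), running from -0.70 without antibiotics array 87 to -0.04 without antibiotics array 98. This compares the changes only, since levels of different probe sets cannot be set against each other.

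The genes that act with TLR2 and TLR4 were read from 9 lists covering other receptors, co-receptors, endogenous ligands, adaptors, kinases, transcription factors, inhibitors, targets and other pattern receptors. Of 137 listed genes 85 had a probe set and 50 passed the filter. In distal tissue 41 of these 50 had lower and 9 higher means with antibiotics, with a median of -0.66 against 0.02 over all 4684 genes tested. Only S100A9, IRF1 and CXCL8 passed the test, all lower, beside 68 lower and 53 higher of the 4684 genes. In proximal tissue 39 were lower and 11 higher, the median was -0.38 against -0.06, and S100A9 alone passed, lower, beside 8 lower and 4 higher of the 4684 genes. S100A9 is also on the neutrophil marker list used below.

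Among 1 other receptor and 3 co-receptors or chaperones tested with limma none passed in either segment (1 in distal and 3 in proximal tissue had an unadjusted p under 0.05, as did 829 and 705 of all 4684 genes). TLR6 differed by -0.66 in distal (SE 0.39, limma adjusted p = 0.452) and 0.06 in proximal tissue (adjusted p = 0.972). LY96, which encodes the lipopolysaccharide-binding subunit of the TLR4 complex, was 9.54 ± 0.92 in control and 8.45 ± 0.63 in treated distal tissue (-1.08, SE 0.52, limma adjusted p = 0.321; -0.34 with each array's position along the gut as a covariate), and 9.89 ± 0.52 and 8.52 ± 1.02 in proximal tissue (-1.38, SE 0.52, limma adjusted p = 0.287). BPI, a neutrophil and epithelial protein that binds and neutralises lipopolysaccharide, differed by -2.35 (SE 0.86, limma adjusted p = 0.182) and -2.64 (SE 0.86, limma adjusted p = 0.213). CD14 was within 0.1 of the floor on 15 of 16 arrays. LBP was too dim to test, yet its control proximal arrays lay between 4.09 and 6.11 and its control distal arrays between 2.16 and 5.98, while all 8 treated arrays lay between 2.14 and 2.19.

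Of 10 endogenous ligands, host proteins described as agonists of these receptors, all 7 tested had lower means in both segments. S100A9, a subunit of calprotectin, fell by 7.15 in distal (SE 1.04, limma adjusted p = 0.00161) and by 5.79 in proximal tissue (SE 1.04, limma adjusted p = 0.0435, past the threshold in 4 of 16 fits with 1 array left out). Its partner S100A8 and the related S100A12 were too dim to test, and both stood at the floor of 2.14 on all 8 treated arrays while reaching 6.34 and 5.92 in control distal tissue. HSPA8, a constitutive heat shock protein, differed by -0.96 (limma adjusted p = 0.12) in distal tissue at its brightest probe set and by -0.28 (limma adjusted p = 0.678) as the mean of all its probe sets.

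The signalling core between receptor and nucleus gave few measurable genes. Of 6 adaptors 3 had a probe set and none passed the filter: MYD88, the adaptor shared by TLR2 and TLR4, never exceeded 2.72, TICAM2 3.90 and PIK3AP1 5.21. Of 24 kinases and ubiquitin ligases 8 were tested, 5 with lower and 3 with higher distal means around a median of -0.23, and none passed or had an unadjusted p under 0.05 in limma. MAPK14, the p38 kinase, differed by -0.34 (limma adjusted p = 0.518) and BTK, a kinase of B cells and myeloid cells, by -0.65 (limma adjusted p = 0.557).

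Of 7 tested transcription factors 1 passed. IRF1, which is induced by interferon and NF-kappa B, fell in distal tissue from 10.27 ± 0.94 to 8.21 ± 0.37 (-2.06, SE 0.39, limma adjusted p = 0.0101), and it was past the threshold in all 16 fits with 1 array left out. In proximal tissue IRF1 differed by -0.19 (limma adjusted p = 0.886). CEBPB, a factor of inflammatory and acute-phase genes, was 10.37 ± 1.41 and 8.17 ± 0.38 in distal tissue (-2.20, SE 0.67, limma adjusted p = 0.107). Of 11 inhibitors none passed in limma, and 5 had an unadjusted p under 0.05 in distal tissue, beside 829 of the 4684 genes. NFKBIA, the NF-kappa B inhibitor that NF-kappa B itself induces, differed by -1.91 (SE 0.52, limma adjusted p = 0.0742) and CYLD, a deubiquitinase that dampens the pathway, by -0.78 (SE 0.26, limma adjusted p = 0.134), both in distal tissue.

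Of 30 target genes 22 had a probe set and 11 were tested, 10 with lower means in each segment. CXCL8, the neutrophil chemoattractant, fell in distal tissue from 12.63 ± 0.93 to 9.78 ± 0.29 (-2.85, SE 0.63, limma adjusted p = 0.027), past the threshold in 9 of 16 fits with 1 array left out, and its proximal difference of -2.57 did not pass (SE 0.63, limma adjusted p = 0.11). CXCL2, another neutrophil chemoattractant, ran from 3.33 to 8.72 in control and from 2.91 to 3.12 in treated distal tissue (-3.64, SE 1.25, limma adjusted p = 0.158). PTGS2, the inducible cyclooxygenase, went the other way in distal tissue with 5.88 ± 0.99 in controls and 7.27 ± 0.87 with antibiotics (1.39, SE 0.75, limma adjusted p = 0.401). Within treated piglets PTGS2 was higher in distal than in proximal tissue by 4.01 (SE 0.75, limma adjusted p = 0.00497), where 5.25% of tested probe sets passed. It did not pass between control segments, nor in the test of whether the antibiotic effect differed between segments. Of the other pattern receptors CASP1, the inflammasome protease, differed by -0.20 (limma adjusted p = 0.824) and DDX58, which encodes the RNA sensor RIG-I, by -1.76 (limma adjusted p = 0.464) in distal tissue.

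**Figure D4:**
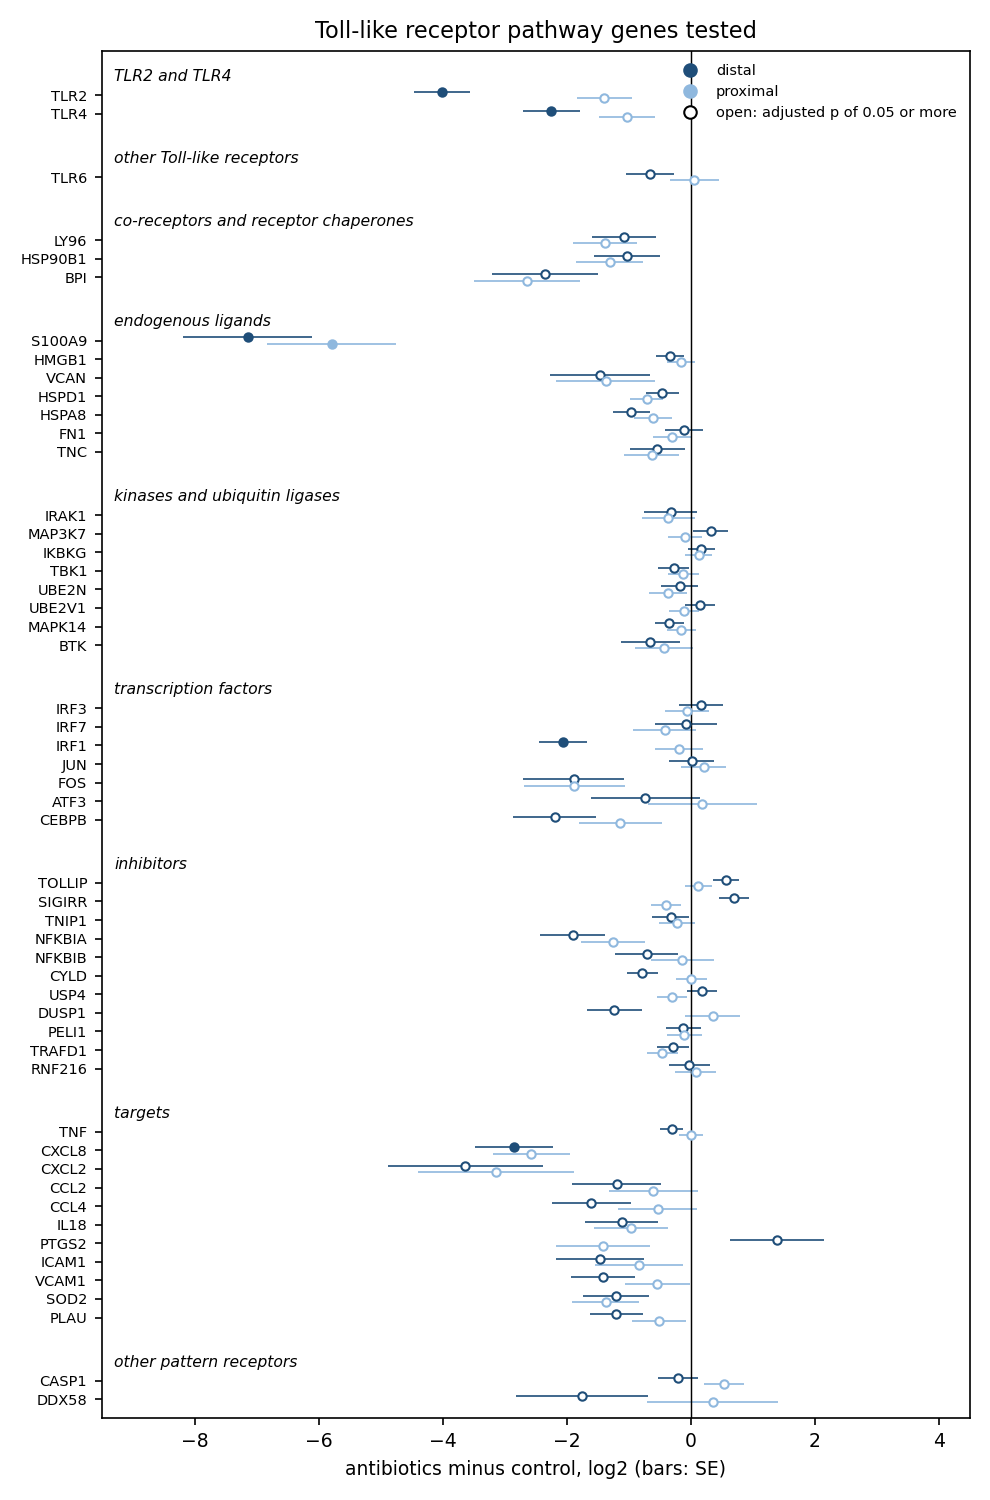
Antibiotics minus control (log2, point and SE, 4 arrays per group) for TLR2, TLR4 and the 50 tested pathway genes, grouped by role; dark blue is distal, light blue proximal, and filled points have a limma adjusted p under 0.05. Filled distal points are TLR2, TLR4, S100A9, IRF1 and CXCL8, and the only filled proximal point is S100A9.

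Whole tissue was measured, so fewer cells of a type and less RNA per cell cannot be told apart, and markers of the cells that carry TLR2 and TLR4 are given beside them. The mean of 8 neutrophil markers lay between 3.04 and 3.30 on treated and between 4.11 and 5.73 on control distal arrays. Only 3 of these 8 genes passed the filter, and the list includes S100A8, S100A9 and S100A12, given above as endogenous ligands. The neutrophil mean differed by -1.79 in distal tissue, and S100A9, 1 of its 8 genes, had the much larger fall given above. How far those S100 genes carry the neutrophil mean was not tested. The mean of 10 macrophage and monocyte markers lay between 4.25 and 4.91 and between 5.80 and 5.99, and that of 7 markers of all leukocytes between 4.59 and 5.86 and between 6.28 and 6.65. All 3 separated without overlap (two-sided exact permutation p = 0.0286 each, the smallest possible, 0.0857 adjusted over 18 marker tests). A list could pass after this adjustment only if most of the 18 tests reached the smallest possible p. So did the mean of 4 goblet and Paneth cell markers, at 12.07 ± 0.19 and 12.50 ± 0.19 (p = 0.0286, exact two-sided permutation, adjusted 0.0857). In distal tissue T and NK, B and plasma, endothelial, smooth muscle and fibroblast, and enterocyte markers had two-sided exact permutation p from 0.0857 to 0.6.

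In proximal tissue the neutrophil mean also separated (3.23 to 3.71 against 4.09 to 5.22, two-sided exact permutation p = 0.0286, adjusted 0.0857), as did the goblet and Paneth mean (11.79 ± 0.13 against 12.38 ± 0.30, the same p). The macrophage mean (4.75 to 5.76 against 5.67 to 6.27) and the leukocyte mean (5.29 to 6.09 against 5.74 to 7.40) overlapped (two-sided exact permutation p = 0.114 each). In distal tissue limma called 2 of 3 neutrophil, 2 of 6 macrophage and 3 of 5 leukocyte markers lower, beside 68 of 4684 genes. In proximal tissue it called 1, 0 and 0 lower, beside 8 genes, and 2 of the 6 macrophage markers had higher means. Of the called macrophage markers, the receptor CD163 fell in distal tissue from 9.03 ± 1.58 to 4.03 ± 0.40 (limma adjusted p = 0.0056). MARCO, ITGAM and FCGR1A of the same list were at the floor on all 16 arrays. The part of these cells in the changes of TLR2 and TLR4 was not tested.

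Between the control segments these marker means are given beside the gradient of TLR2. The control distal and control proximal ranges overlapped for neutrophils (4.11 to 5.73 and 4.09 to 5.22), macrophages (5.80 to 5.99 and 5.67 to 6.27) and leukocytes (6.28 to 6.65 and 5.74 to 7.40), while TLR2 stood 11.2-fold higher in distal tissue. Of 3 neutrophil, 6 macrophage and 5 leukocyte markers tested between control segments with limma, 0 passed and 0 had an unadjusted p under 0.05. Over all 4684 genes 3 were called lower and 14 higher in this comparison and 394 had an unadjusted p under 0.05, so a count of 0 among so few markers does not show that the cells were equal.

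**Figure D5:**
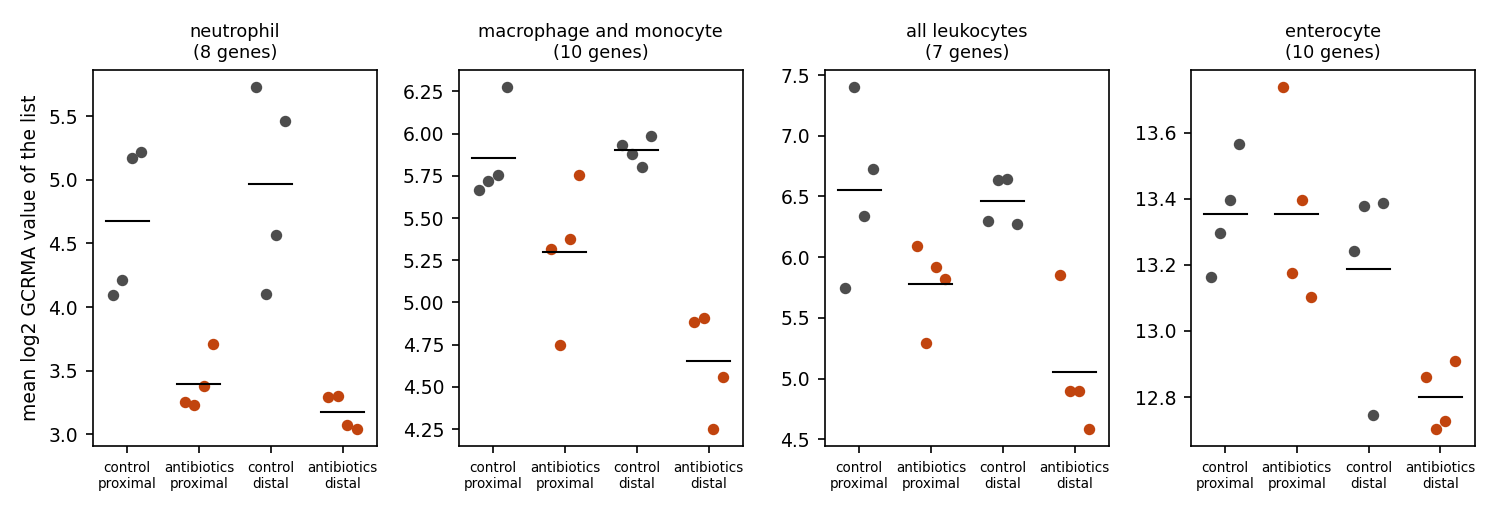
Mean log2 GCRMA value of the neutrophil, macrophage, leukocyte and enterocyte marker lists on each array by group; points are arrays, bars the means of 4 arrays, and each panel has its own vertical axis that does not start at 0. Treated distal arrays lie below all control distal arrays in the first 3 panels, and control proximal and control distal arrays overlap in all 4.

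Distal arrays may come from different positions along the gut. A position axis built from 347 probe sets that differ between segments, but that showed no treatment difference after adjustment, put control distal arrays 83 and 88 at 0.783 and 0.689, controls 89 and 92 at 1.09 and 0.956, and the treated distal arrays between 1.05 and 1.22 (0 is the proximal and 1 the distal mean). With this position as a covariate TLR2 differed by -4.33 in distal tissue (SE 0.64, limma adjusted p = 0.00634), and TLR4 by -2.41 (SE 0.66), no longer past the threshold (limma adjusted p = 0.0707). The same covariate moved several pathway genes. CEBPB (-3.73, limma adjusted p = 0.0294), NFKBIA (-2.86, 0.0407) and CXCL2 (-6.45, 0.0403) passed, each in only 2 of the 13 alternatives run. PTGS2 shrank to 0.48 and BTK to -0.33, and MAPK14 (-0.75) and DDX58 (-2.92) grew without passing. The axis came from these same arrays, and of the control distal arrays only 89 lay within the treated distal range. On this axis position and treatment therefore cannot be fully separated in distal tissue. With a stricter axis of 130 probe sets, added after seeing the data, the limma adjusted p was 0.00033 for TLR2 and 0.0209 for TLR4. It put control distal arrays 83, 88, 89 and 92 at 0.975, 0.880, 1.16 and 1.04. Treated distal arrays 85, 86, 87 and 95 stood at 1.05, 1.05, 0.933 and 1.12, so the groups overlapped. The stricter axis kept only probe sets with little treatment difference before adjustment, a choice that itself favours overlap.

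The genes whose log2 values over the 16 arrays were most like those of TLR2, by Pearson's r among 4683 other genes, were PI3 (0.882), TRIM52 (0.878), ST6GAL1 (0.862), SPAI-2 (0.837) and FAM111B (0.835). PI3 and SPAI-2 encode secreted protease inhibitors of the trappin family. With each group's mean taken out, they were IER3 (0.839), IFNAR2 (0.791), SP140 (0.778), RGS4 (0.773) and IFIT2 (0.771), of which IFNAR2 is a subunit of the type I interferon receptor and IFIT2 an interferon-induced gene. No gene was on both lists.

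For TLR4 the most like were SRGN (0.943), CD59 (0.909), PPA1 (0.909), MRC1 (0.907) and CSRP2 (0.886), of which SRGN encodes a proteoglycan of blood and endothelial cell granules and MRC1 the macrophage mannose receptor. With the group means taken out they were CYR61 (0.914), CLEC1A (0.888), PRPS1 (0.876), UBFD1 (0.856) and ELAVL4 (0.854). TLR2 and TLR4 were not among each other's 5 most correlated genes. Over 16 arrays r was 0.581, which placed TLR4 at rank 212 of 4683 for TLR2 and TLR2 at rank 450 for TLR4. With the group means taken out r was 0.502, at ranks 204 and 714. These correlations share the 4 groups and, for most piglets, both segments, and are descriptions only.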

How the data were processed

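Total RNA from 16 samples of piglet intestine, 4 per group, was measured on Affymetrix porcine arrays after labelling with a 3′ IVT kit, per the labels' protocols. The authors deposited log2 values, 1 per probe set and array. The submitters' processing notes name GCOS 1.2, GCRMA and limma. Settings are not given in the sources used. The lowest value is 2.14, and 39.7% of values lay under 2.5, so differences that reach down there are compressed.

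Of 24123 probe sets 124 controls were left out, and 10069 had 1 gene symbol, 198 several and 13732 none in the platform annotation. Probe sets above 5 on at least 4 of 16 arrays were tested (11538, for 4684 genes). A gene was read at its probe set with the highest mean. Group means were fitted over 16 arrays with limma 3.58.1 in R 4.3.3, with Benjamini-Hochberg adjustment over all tested probe sets and a threshold of 0.05. Single values were compared by exact permutation over arrays. Animal means used 3 treated and 4 control piglets. The fit was tested on simulated data with known changes. That simulation used independent normal noise, without a floor, shared values or segments paired by piglet, so it does not cover values near the floor.

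TLR2, TLR4, the pathway and marker lists and the rules were chosen with earlier results of these data known. Named are all Toll-like receptors, pathway list members past the threshold and the 2 members per pathway list with the largest moderated t in distal tissue. The 5 most correlated genes of each receptor are named too. CD163 and the floor markers, LBP, S100A8, S100A12 and the adaptors were named after their values were seen. Alternatives covered the filter, normalization, array weights, eBayes settings, probe set summary, samples used, piglet number as a block, covariates and each array left out.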

Additional observations from a re-analysis of the deposited data

Results flagged for a closer look

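In 124 groups of 4 arrays the gap of the highest or lowest array to its neighbour was divided by the range of the group, and ratios above Dixon's 95% critical value are given. Chance gives about 1 such group in 20. Control proximal array 92 was high for TLR2 (6.40 against 4.83 to 5.00, ratio 0.888), for the dimmer TLR4 probe set Ssc.12781.1.A1_at (4.82 against 2.47 to 2.58, ratio 0.955) and for the macrophage marker mean (6.27 against 5.67 to 5.75, ratio 0.858). Antibiotics proximal array 98 was high for the same TLR4 probe set (3.46 against 2.43 to 2.56, ratio 0.876) and for TLR6 (6.39 against 5.20 to 5.32, ratio 0.896).

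CYLD was low on control proximal array 89 (6.16 against 6.85 to 6.98, ratio 0.846). The B and plasma cell marker mean was high on control proximal array 88 (7.83 against 6.59 to 6.74, ratio 0.877) and on antibiotics distal array 85 (7.78 against 6.18 to 6.36, ratio 0.888). The smooth muscle and fibroblast marker mean was low on antibiotics proximal array 87 (7.60 against 8.05 to 8.09, ratio 0.913).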

How the results depend on the processing

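TLR2 in distal tissue and TLR2 between control segments kept their calls in every alternative run. The limma fits with piglet number as a replicate block left every call on TLR2 and TLR4 unchanged (random block, consensus correlation 0.172: TLR2 distal -3.99, adjusted p = 0.000114, and TLR4 distal -2.18, adjusted p = 0.0198). Residuals of arrays with the same number correlated at 0.0293 to 0.526 over 7 numbers, above 0.1 for 5 of them. For 86, 87 and 89 a distal array of another number in the same treatment correlated more highly (0.0668, 0.228 and 0.152). These correlations do not settle whether a number is an animal. The reported fits carry no block and so treat the segments of a piglet as separate arrays. The differences per piglet and the animal means assume that a number is an animal. Without a filter TLR4 distal (-2.25, limma adjusted p = 0.0665) and the animal means of TLR2 (-2.86) and TLR4 (-1.88, limma adjusted p = 0.269 each) lost the threshold, with 23999 probe sets tested. With trend and robust eBayes the TLR4 animal means had an adjusted p of 0.0525. With the position covariate TLR4 distal was -2.41. With array quality weights the TLR2 segment difference (-2.69) and TLR4 between treated segments (-1.06) passed, at limma adjusted p of 0.0364 and 0.0103. At a filter of 7, or with the mean of all its probe sets, TLR4 was not tested. With the position covariate TLR6 was 0.094 and BPI 0.12, and with only piglets of both segments CASP1 was 0.000193, each of the other sign than reported. Marker means that did not pass also changed sign in proximal tissue: enterocyte 0.044 at equal array medians, smooth muscle and fibroblast 0.0090 after quantile normalization and 0.038 at equal medians.

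With 1 array or piglet left out, TLR4 distal ran from -2.31 to -2.15, TLR4 between control segments from -0.12 to 0.43, and the animal means from -3.12 to -2.56 for TLR2 and from -2.04 to -1.73 for TLR4. CASP1 distal ran from -0.38 to 0.079. Marker means ran from -0.55 to 0.15 for B and plasma cells in distal tissue and, in proximal tissue, from -0.13 to 0.081 for enterocytes, -0.12 to 0.16 for endothelium and -0.13 to 0.11 for smooth muscle and fibroblasts. The number of called probe sets ran from 106 to 353 in distal (245 as reported) and from 2 to 556 in proximal tissue (17). The settings that moved it most were no filter (138 distal, 1 proximal), only arrays of 1 segment (430 and 0, with 913 proximal probe sets at an unadjusted limma p under 0.05), only piglets with both segments (159 and 55) and array quality weights (1665 and 951). Array weights gave 210 for the segment difference (22), 80 between control segments (42), 3008 between treated segments (606) and 922 for animal means (40). The cause of these changes was not tested.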
